A study of Drosophila melanogaster with 12 samples.

Results

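The piRNA pathway genes examined here were 10 Drosophila genes, piwi, aub, AGO3, spn-E, krimp, tej, qin, zuc, armi and rhi, taken by FlyBase identifier from a count table of 17610 genes. All 10 were listed in the table, and 9 of them had enough reads to be tested among 11060 genes. The exception was armi. Whole female flies of the Oregon strain had been sequenced in 12 mRNA libraries, 3 in each of 4 groups. Controls fed for 3 days on a green-dyed yeast medium made up in water. For the treated groups the medium was made up with cisplatin, which cross-links DNA and is used against tumours, with nanoparticles of titanium dioxide (TiO2), or with both substances, which is called the combination here. The labels conflict on the dose, which the protocol puts at 50 µg/ml per substance and the titles at 50 mg/ml, and no value below depends on it. The series text speaks of 3 runs per sample, and neither the number of flies in a library nor their age is given. The p-values therefore measure only the spread between these libraries, which may be technical.

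piRNAs are small RNAs of the gonad that guide Argonaute proteins of the Piwi clade to transposon transcripts. In the ovary, long precursors transcribed from piRNA clusters are exported to a perinuclear granule of the germ cells, the nuage, where Aubergine and AGO3 cut transposon and cluster transcripts in turn, and to mitochondria, where the precursors are processed into phased piRNAs that load Piwi. Piwi then enters the nucleus and directs heterochromatin to transposon copies. Most of these genes are transcribed mainly in germ cells, so in a whole-body extract their level also moves with how much ovary the RNA holds. In such bulk samples, fewer germ cells and less RNA per germ cell cannot be told apart.

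Control 1 and combination 2 stood apart from the other libraries in several marker sums, and control 2 in the muscle genes. Library totals ran from 26763042 to 46694769 counts, and levels are given as CPM, the count divided by the scaled library total in M (mega). The chorion genes, which late follicle cells transcribe to build the eggshell, summed to 8.28 CPM in control 1 and 27.4 CPM in combination 2, against 2383 to 16363 CPM in the other libraries. None of the 9 chorion genes was at 0 in any library. Combination 2 also held male transcripts, with 1512 CPM over 24 testis, accessory gland and male-specific transcripts against 7.78 to 12.2 CPM elsewhere, and none of the 24 was at 0 there, while 5 to 14 were in the others. The labels call all flies female. The summed level of 4 muscle genes was 24988 CPM in control 1, 17107 CPM in control 2 and 31932 CPM in combination 2, against 1527 to 9766 CPM in the other 9 libraries. The labelled tissue, which includes the ovary, was represented by 15 of 16 female germline markers in all libraries, and cup had no count in any. Why cup had no count was not tested, and it adds nothing to the sums of 16 germline markers below. Results are given with all 12 libraries and, where it bears on them, without control 1 and combination 2, a choice made after the data had been seen.

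The Argonaute piwi (FBgn0004872, chromosome arm 2L, 10982205 to 10987420, minus strand, BDGP6.54) encodes the nuclear effector of the pathway, which acts in germ cells and in the somatic follicle cells. In replicates 1, 2 and 3, piwi stood at 112, 109.9 and 164 CPM in the controls, 183, 189.9 and 182 CPM with cisplatin, 169.9, 234 and 195 CPM with TiO2, and 194, 91.0 and 168 CPM with both. Every cisplatin and TiO2 library was above every control library, and the combination spanned the control range, with combination 2 the lowest of the 12. Group means (± SD, n = 3) were 129 ± 30.5 CPM for the controls, 185 ± 4.32 with cisplatin, 199.6 ± 32.1 with TiO2 and 151 ± 53.5 with both.

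The neighbouring gene aub (FBgn0000146, 2L, 10997819 to 11001476, minus strand) encodes Aubergine, the nuage Argonaute that cuts transposon transcripts. Its levels were 75.3, 72.5 and 114 CPM in the controls, 147, 138 and 119 CPM with cisplatin, 117, 146 and 121 CPM with TiO2, and 126, 67.6 and 116 CPM with both. As for piwi, the cisplatin and TiO2 libraries were all above the controls, and combination 2 was lowest. The ratio of aub to piwi in CPM stayed between 0.619 and 0.804 over the 12 libraries.

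AGO3 (FBgn0250816, 3L, 23554593 to 23689640, plus strand) encodes the partner of Aubergine in reciprocal cutting. The libraries held 82.0, 128 and 241 CPM in the controls, 244, 284 and 251 CPM with cisplatin, 251, 233 and 257 CPM with TiO2, and 303, 58.2 and 206 CPM with both. AGO3 ranged wider than the other Argonautes, by 5.20 times between the highest and lowest library against 2.57 times for piwi and 2.18 times for aub. The ratio of piwi to AGO3 ran from 0.640 in combination 1 to 1.56 in combination 2, and was 1.37 in control 1.

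Of the nuage proteins, spn-E (FBgn0003483, 3R, 15837419 to 15844415, plus strand) encodes an RNA helicase with a Tudor domain that reciprocal cutting requires. Its level was 31.8, 58.5 and 140.2 CPM in the controls, 98.5, 142 and 139.7 CPM with cisplatin, 173, 122 and 154 CPM with TiO2, and 176, 34.5 and 153 CPM with both. Control 1 was the lowest library and combination 2 the next, while control 3 lay inside the range of the treated groups. krimp (FBgn0034098, 2R, 16238103 to 16240722, minus strand) encodes a Tudor protein that holds Aubergine and AGO3 together in the nuage. It stood at 20.0, 42.0 and 109 CPM in the controls, 83.6, 101 and 102 CPM with cisplatin, 145, 88.1 and 101 CPM with TiO2, and 139, 16.02 and 108 CPM with both. The 9.07-fold span of krimp was the widest of the 9 genes, and the 3 lowest libraries were combination 2, control 1 and control 2.

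tej (FBgn0033921, 2R, 14300103 to 14302353, minus strand) encodes a Tudor protein that recruits the helicases Vasa and Spn-E to the nuage. Its levels were 23.8, 29.2 and 59.3 CPM in the controls, 63.3, 68.1 and 57.5 CPM with cisplatin, 65.0, 61.3 and 57.3 CPM with TiO2, and 73.4, 15.6 and 60.1 CPM with both. Leaving aside control 1, control 2 and combination 2, tej was within 57.3 to 73.4 CPM in all libraries. The ratio of AGO3 to tej stayed between 3.44 and 4.48 in all 12.

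qin (FBgn0263974, 3R, 18591027 to 18650137, plus strand) encodes a Tudor protein that keeps reciprocal cutting between Aubergine and AGO3 rather than among Aubergine molecules. Its levels were 29.1, 25.2 and 25.0 CPM in the controls, 41.6, 30.8 and 34.4 CPM with cisplatin, 19.4, 45.9 and 34.4 CPM with TiO2, and 30.5, 35.4 and 22.1 CPM with both. It was the only one of the 9 genes whose lowest library was neither control 1 nor combination 2. Its lowest and highest libraries were both of the TiO2 group. A testis kinase gene, Tssk, lies within the span of qin on the same strand with 0 shared exonic bases, and it had 1234 counts in combination 2 against at most 2 elsewhere. Whether reads from there enter the qin count was not tested.

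zuc (FBgn0261266, 2L, 11988735 to 11989882, minus strand) encodes Zucchini, the mitochondrial endonuclease that cuts precursors into phased piRNAs. Its levels were 6.12, 10.9 and 21.8 CPM in the controls, 15.5, 16.7 and 19.0 CPM with cisplatin, 22.1, 14.1 and 17.5 CPM with TiO2, and 20.2, 4.85 and 16.95 CPM with both. Control 3 was above all 3 cisplatin libraries, so the groups overlapped. armi (FBgn0041164, 3L, 3461317 to 3466314, plus strand) encodes Armitage, the helicase that brings precursors to Zucchini. It had 5 counts in all, at most 1 in any library. The gene CG46463 covers 99.6% of its exonic bases on the same strand (4145 of 4162), and CG46463 had a count of 0 in every library. The level of armi could therefore not be read from this table.

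rhi (FBgn0004400, 2R, 17628491 to 17633516, minus strand) encodes Rhino, a heterochromatin protein of the HP1 family that marks dual-strand piRNA clusters for transcription. The libraries held 21.9, 14.03 and 45.6 CPM in the controls, 49.1, 22.9 and 31.3 CPM with cisplatin, 45.3, 37.2 and 37.2 CPM with TiO2, and 23.6, 5.73 and 20.1 CPM with both. All 3 combination libraries were below all 3 TiO2 libraries, and rhi was the only one of the 9 genes with a lower mean in the combination (16.5 ± 9.49 CPM) than in control (27.2 ± 16.5 CPM). rhi lies within the span of CG10936 on the same strand, with 0 shared exonic bases. Of the other genes, piwi shared 6.22% of its exonic bases with SCAR and zuc 5.84% with CG34163, both on the opposite strand, and the strand setting of the counting is not given.

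**Figure D1:**
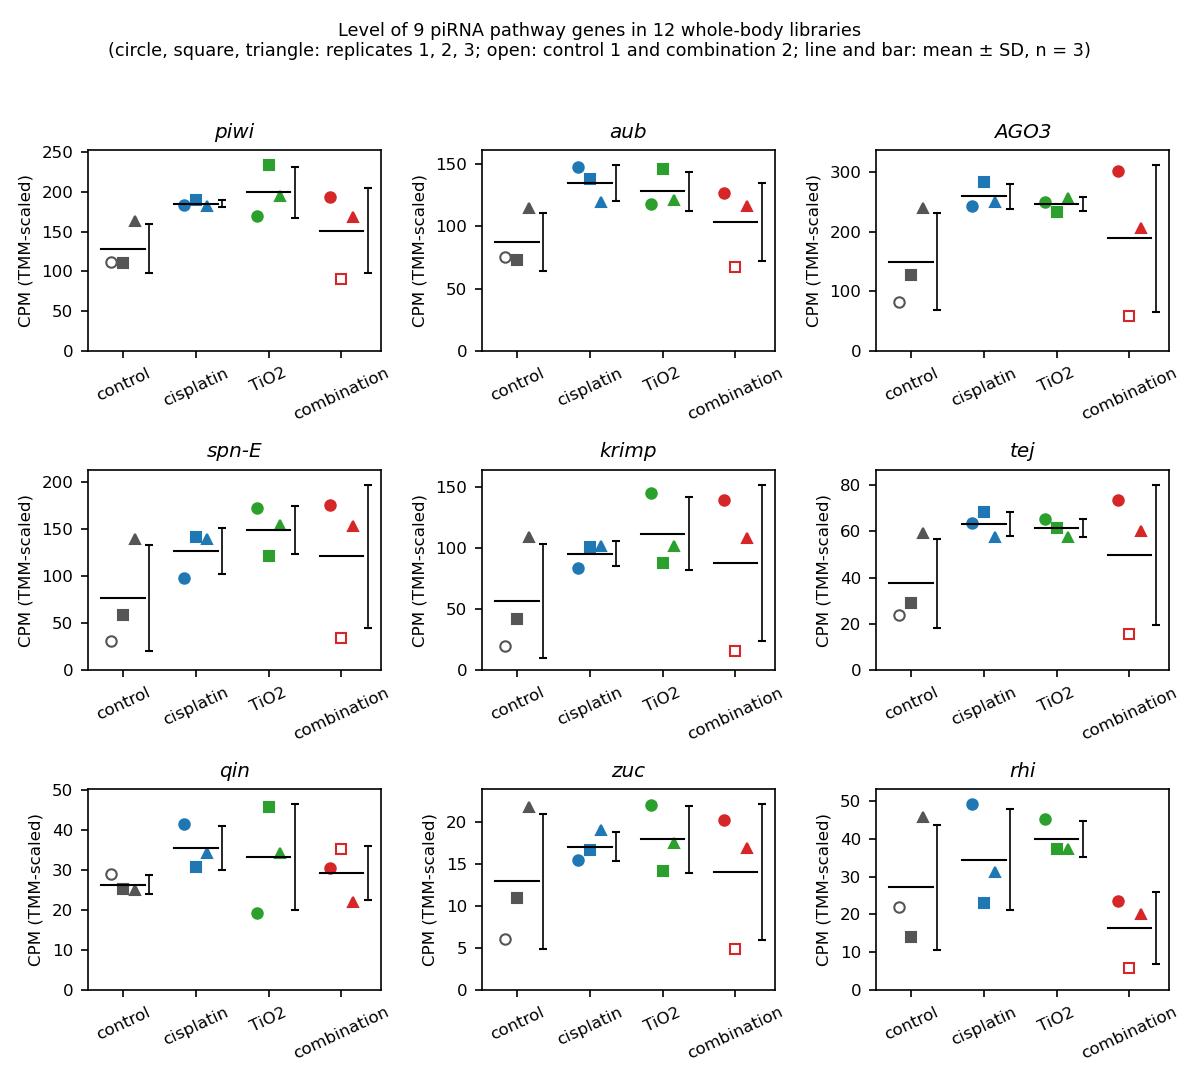
CPM (TMM-scaled) of 9 piRNA pathway genes in each of the 12 libraries by group, on linear axes from 0. Circles, squares and triangles are replicates 1, 2 and 3, open symbols are control 1 and combination 2, and lines with bars are mean ± SD (n = 3). Combination 2 is the lowest library for 7 of the 9 genes, while qin follows another order.

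Per kilobase of exon, AGO3 was the most abundant at 66.4 ± 24.8 CPM per kb (SD over 12 libraries), followed by piwi at 54.0 ± 13.5 and aub at 37.6 ± 9.12 CPM per kb. The nuage genes krimp, tej and spn-E followed with 34.5 ± 16.4, 27.2 ± 9.70 and 25.4 ± 10.9 CPM per kb. rhi had 18.8 ± 8.68, zuc 13.5 ± 4.90 and qin 5.11 ± 1.27 CPM per kb. Of neighbours in this order, piwi and aub differed by more than the SD of either gene, and so did zuc and qin. AGO3 and piwi, aub and krimp, krimp and tej, tej and spn-E, and spn-E and rhi differed by less than the SD of either gene. rhi and zuc differed by more than the SD of zuc but less than that of rhi. This SD also holds shifts between libraries that most of these genes share, so it does not test their order within a library.

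The first comparison asks how cisplatin alone changes these genes. All 9 tested genes had a higher mean after cisplatin than in control, by log2 fold changes from 0.34 (rhi) to 0.79 (AGO3), with a median of 0.62 against -0.03 over all genes, 48.7% of which were higher. The ranges of the 2 groups did not overlap for piwi, aub, AGO3 and qin, which is 4 of 9 genes against 15.6% of all genes in this direction. By the quasi-likelihood test of edgeR with Benjamini-Hochberg adjustment, none of the 9 passed at 0.05, and neither did any of the 11060 genes (0%). The nearest was aub, with a log2 fold change of 0.62 (SE 0.25, unadjusted p = 0.0332, adjusted p = 0.270 in edgeR), higher in 3 of 3 libraries. It was the only one of the 9 with an unadjusted p under 0.05, which 3.27% of all genes had in this direction. piwi had a log2 fold change of 0.52 (SE 0.27, adjusted p = 0.279 in edgeR) and AGO3 one of 0.79 (SE 0.51, adjusted p = 0.318 in edgeR).

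DESeq2 also called 0 of the 9 genes, and 1.98% of all genes. limma voom with sample weights called 8 of 9 higher, where it called 37.2% of all genes in that direction. It weighted controls 1, 2 and 3 by 0.278, 4.69 and 0.116, so its calls against control rest mostly on control 2. Without control 1 the median over the 9 genes was 0.43, without control 2 it was 0.51, without control 3 it was 1.01, and without control 1 and combination 2 it was 0.41, with all 9 still higher. That last setting keeps only control 2 and control 3 as controls. Control 3 alone was above the cisplatin mean for spn-E, krimp, zuc and rhi, and below it for piwi, aub, AGO3, tej and qin. Beside these differences, the summed level of the 16 germline markers was 2211, 2344 and 3970 CPM in the control libraries and 4534 to 4589 CPM in the cisplatin libraries. Follicle cell markers were higher after cisplatin for 17 of 18, with a median of 1.05 on the log2 scale, and summed to 5604 to 12648 CPM in the controls and 15441 to 24890 CPM with cisplatin. Markers of other tissues were lower for 8 of 12, with a median of -0.73. They summed to 14809 to 40606 CPM in the controls and 21030 to 28665 CPM with cisplatin. These sums include the yolk protein genes Yp1, Yp2 and Yp3, which do not mark tissue outside the ovary alone. The yolk protein genes held 10946 to 16328 CPM in the controls and 16287 to 24071 CPM with cisplatin. The muscle genes in these sums held 2726 to 24988 CPM in the controls and 1527 to 4466 CPM with cisplatin. With cisplatin the sums were therefore mostly yolk protein transcripts. None of these follicle and other-tissue markers was at 0 in any library. edgeR and DESeq2 called 0 in each marker list. At an unadjusted p under 0.05, edgeR had 5 germline and 1 other-tissue marker higher and 6 other-tissue markers lower. Of all genes 3.27% were higher at that p, and the share lower is not given here. limma voom with sample weights called 13 germline and 3 follicle markers higher and 8 other-tissue markers lower. It also called 1 germline and 1 follicle marker lower. Over all genes it called 37.2% higher and nearly as many lower. The part of tissue content in the difference was not tested. In the authors' deposited table for this comparison, the adjusted p of aub was 0.193, the smallest of the 10 genes. In the authors' deposited table for TiO2 armi had no adjusted p, and piwi had the smallest among the other members, at 0.119. In their table for the combination the smallest adjusted p of a member was 0.997. Over all genes with an adjusted p, the authors' tables called 0.878% for cisplatin, 4.03% for TiO2 and 0.484% for the combination.

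The same question was put to TiO2 alone, against the same control libraries. Again all 9 tested genes had a higher mean than in control, by 0.33 (qin) to 0.97 (krimp) on the log2 scale, with a median of 0.63 against -0.08 over all genes, 46.1% of which were higher. Only piwi and aub were without overlap between the groups, 2 of 9 genes against 11.3% of all genes in this direction. edgeR called 0 of the 9 and 0% of all genes at an adjusted p of 0.05. piwi had a log2 fold change of 0.63 (SE 0.27, unadjusted p = 0.0395, adjusted p = 0.300 in edgeR) and was higher in 3 of 3 libraries. An unadjusted p under 0.05 in this direction was found for 3.71% of all genes. The other members were above 0.05, aub with 0.0539 and a log2 fold change of 0.55 (SE 0.25, edgeR). spn-E and krimp had log2 fold changes of 0.96 (SE 0.60) and 0.97 (SE 0.71), larger than that of piwi, with 1 control library inside the TiO2 range.

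DESeq2 called 0 of the 9 genes after TiO2, and 2.78% of all genes, while limma voom with sample weights called 8 of 9 higher, and 35.5% of all genes in that direction. The median over the 9 was 0.44 without control 1, 0.54 without control 2, 1.16 without control 3, and 0.43 without control 1 and combination 2. The germline marker sum was 4043 to 4796 CPM in the TiO2 libraries, above every control library. Follicle markers were higher after TiO2 for 14 of 18 (median 0.49 on the log2 scale, sums of 2799 to 20063 CPM). Markers of other tissues were lower for 8 of 12 (median -0.74, sums of 14055 to 28059 CPM). Of the latter sums, yolk protein genes held 6310 to 20670 CPM and muscle genes 3358 to 6985 CPM. Directly between the single treatments, the 9 genes differed by -0.24 to 0.10 on the log2 scale (cisplatin minus TiO2), none without overlap of the ranges, against 10.1% of all genes. edgeR, DESeq2 and limma voom each called 0 of them and 0% of all genes, and edgeR gave none an unadjusted p under 0.05, against 0.497% of all genes. Higher means with cisplatin were found for 4 of the 9, against 50.4% of all genes.

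The third comparison set both substances together against control. With the combination 8 of 9 tested genes had a higher mean than in control, from 0.11 (zuc) to 0.66 (spn-E) on the log2 scale, while rhi was at -0.72 (SE 0.54, adjusted p = 0.952 in edgeR). Under limma voom with sample weights rhi was at 0.44 instead (adjusted p = 0.216) and qin at -0.17. The median was 0.24 against 0.05 over all genes, 54.9% of which were higher. No gene of the 9 had ranges apart from control, against 6.83% of all genes, and edgeR called none of them, as it called 0% of all genes. At an unadjusted p under 0.05 it had 0 of the 9 and 7.09% of all genes. DESeq2 called 0 of 9 and 0.433% of all genes, and limma voom with sample weights called 7 of 9 higher, where it called 30.6% of all genes higher.

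The result depended on single libraries. Without combination 2 the median over the 9 genes was 0.52, with krimp at 1.11 (SE 0.53, adjusted p = 0.232 in edgeR), spn-E at 1.10 and tej at 0.83, while qin was at -0.01 and rhi at -0.31. Without control 1 the median was 0.14, without control 2 it was 0.13, and without control 3 it was 0.72. With control 1 and combination 2 both left out it was 0.39, beside 0.41 and 0.43 for the single treatments under the same choice. The germline marker sum was 4683, 2301 and 3506 CPM in the combination libraries. Follicle markers were lower for 15 of 18 (median -0.47 on the log2 scale, sums of 2827 to 9841 CPM). Markers of other tissues were lower for 8 of 12 (median -0.21, sums of 18493 to 43431 CPM). Of the latter sums, yolk protein genes held 9349 to 15628 CPM and muscle genes 1926 to 31932 CPM. The part of tissue content and of male transcripts in this comparison was not tested. These 3 comparisons share the control libraries, so their values are not independent of each other.

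**Figure D2:**
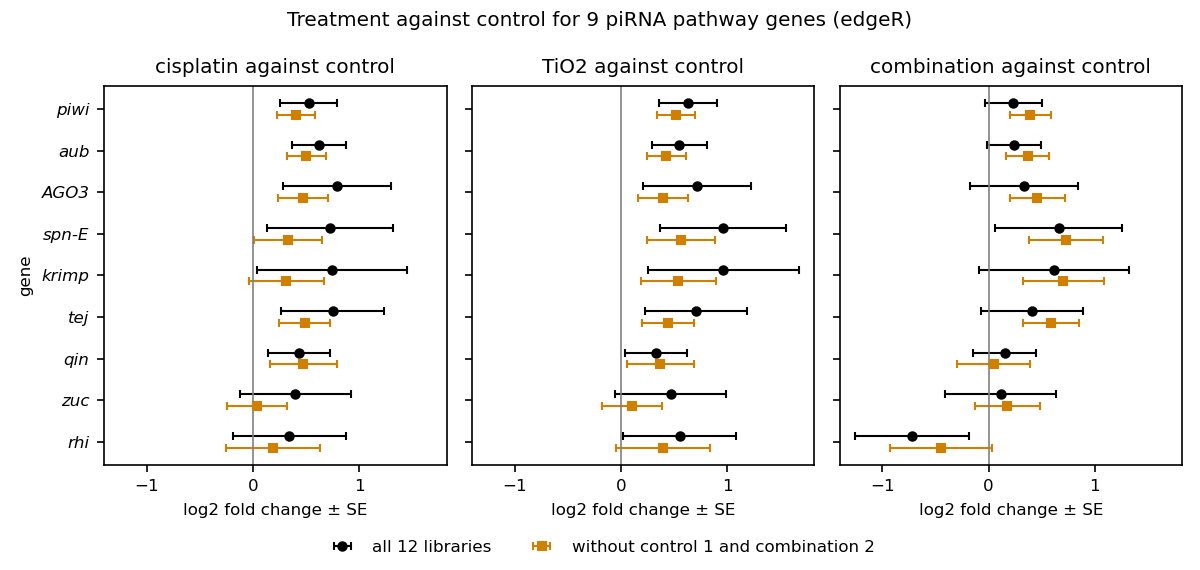
edgeR log2 fold change ± SE against control for 9 piRNA pathway genes, one panel per treatment. Black circles use all 12 libraries and orange squares leave out control 1 and combination 2. Most points lie above 0, none passed an adjusted p of 0.05, and rhi lies below 0 in the combination in both settings.

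Set against each single treatment, the combination had the lower mean for all 9 genes. Against cisplatin the log2 differences ran from -1.06 (rhi) to -0.06 (spn-E) with a median of -0.29, and no gene had ranges apart, against 15.4% of all genes. Over all genes, 47.2% were higher in that comparison and 51% in the one against TiO2. Against TiO2 they ran from -1.27 (rhi) to -0.18 (qin) with a median of -0.35. Here rhi was 1 of 9 genes with ranges apart, against 2.33% of all genes in this direction, with a log2 difference of -1.27 (SE 0.54, unadjusted p = 0.0394, adjusted p = 0.617 in edgeR), lower in 3 of 3 libraries. edgeR called 0 of the 9 genes and 0% of all genes in both comparisons. Unadjusted p-values under 0.05 belonged to 0 of the 9 against cisplatin, where 14.4% of all genes had one, and to rhi against TiO2, where 0.199% of all genes had one in this direction. DESeq2 called 0 of 9 in both, with 0.339% and 0.0277% of all genes. limma voom with sample weights called 1 of 9 lower against cisplatin (8.82% of all genes) and 0 against TiO2 (0.94% of all genes).

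Without control 1 and combination 2, the medians moved to -0.01 against cisplatin, with 4 genes higher and 5 lower, and to 0.06 against TiO2, with 5 higher and 4 lower. rhi kept a log2 difference of -0.64 against cisplatin and -0.85 against TiO2 in that setting (adjusted p = 0.999 and 1.00 in edgeR), and its libraries combination 1 and combination 3, with 23.6 and 20.1 CPM, were still below the TiO2 libraries.

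Whether the effect of the combination differs from the sum of both single effects was tested as an interaction on the log2 scale. It was negative for all 9 genes, from -1.61 (rhi) to -0.61 (qin), with a median of -1.02 against 0.07 over all genes, 51.8% of which were above 0. For piwi it was -0.93 (SE 0.38, unadjusted p = 0.0341, adjusted p = 0.141 in edgeR), and for aub -0.93 (SE 0.36, unadjusted p = 0.0257, adjusted p = 0.133 in edgeR). These were the 2 of 9 genes with an unadjusted p under 0.05, against 4.98% of all genes in this direction. edgeR called 0 of 9 genes and 0% of all genes, and DESeq2 0 of 9 and 14.8% of all genes. limma voom with sample weights called 9 of 9 below 0, and 37.3% of all genes in that direction. Without control 3, aub was called at -1.19 (adjusted p = 0.0492 in edgeR), where 1.63% of all genes were called in that direction and the median over the 9 was -1.56. Without control 1 and combination 2 the median was -0.41 and zuc was at 0.03. All terms of the interaction share the libraries of the comparisons above.

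Most of the 9 genes shared their lowest library. Between the highest and the lowest of the 12 libraries, krimp differed 9.07-fold, rhi 8.57-fold, spn-E 5.55-fold, AGO3 5.20-fold, tej 4.70-fold and zuc 4.54-fold, all above the median of 3.03-fold over all genes. piwi with 2.57-fold, qin with 2.37-fold and aub with 2.18-fold were below that median. Without control 1 and combination 2 the 9 genes spanned 2.02-fold (zuc) to 3.50-fold (rhi), with krimp at 3.46-fold. Combination 2 was lowest for 7 of the 9, and it was lowest for 26.6% of all genes. The median SD of log2 CPM within a group was 0.78 for the controls, 0.16 with cisplatin, 0.23 with TiO2 and 1.11 with both, against 0.50, 0.13, 0.18 and 0.62 over all genes.

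The 9 genes were also set against germline markers outside the pathway. Their mean log2 CPM minus that of 15 germline markers lay between -1.07 and -0.79 in 11 libraries and was -1.58 in combination 2 (12 libraries, cup left out). For piwi the range over the libraries narrowed from 1.36 on the log2 scale to 0.48 when the germline mean was subtracted, and for aub from 1.12 to 0.47. krimp went from 3.18 to 2.19 and rhi from 3.09 to 2.10. The range of qin widened from 1.24 to 1.86.

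The composition of the pathway's summed CPM differed between libraries. Of the sum over the 9 genes, piwi made up 16.9% to 27.9%, AGO3 17.7% to 28.6%, krimp 4.87% to 14.4% and qin 1.92% to 10.8%. The ratio of krimp to qin ran from 0.452 in combination 2 and 0.688 in control 1 to 7.50 in TiO2 1, and from 1.66 to 4.89 in the other 9 libraries. Of the ratios computed between members, this one had the widest range, at 16.6-fold between the highest and lowest library. The follicle cell genes of the vitelline membrane, made in mid-oogenesis, were lowest in TiO2 1, with a summed level of 275 CPM against 692 to 6248 CPM in the other libraries. The part of egg chamber stages in these ratios was not tested.

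**Figure D3:**
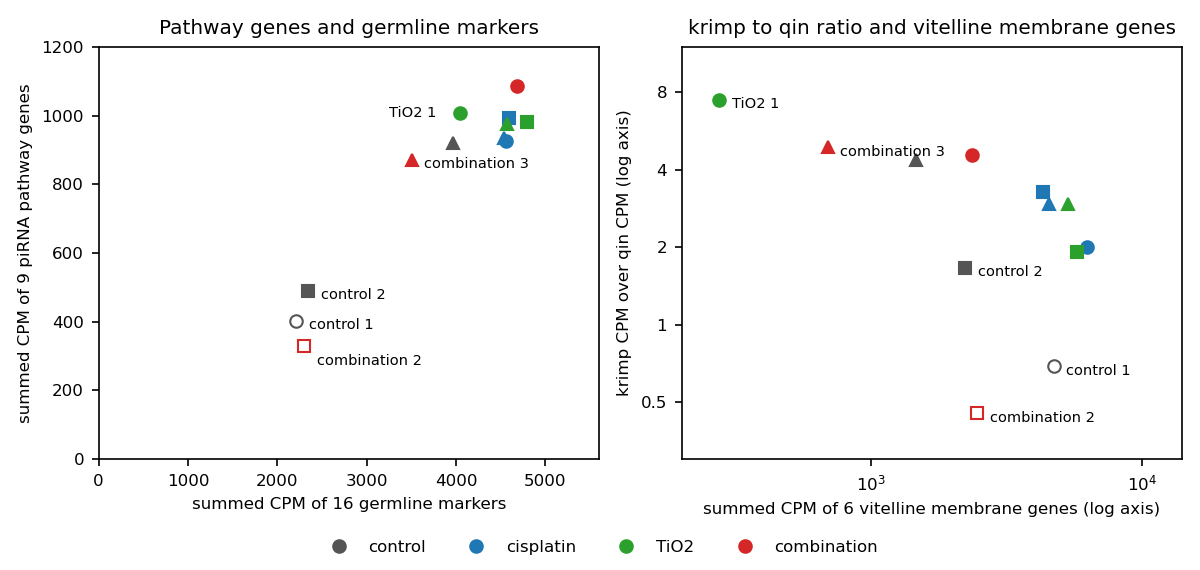
Left, summed CPM of the 9 piRNA pathway genes against summed CPM of 16 germline markers. Right, the ratio of krimp to qin CPM against summed CPM of 6 vitelline membrane genes, on log axes. Each point is 1 of 12 libraries, coloured by group, with circles, squares and triangles for replicates 1, 2 and 3 and open symbols for control 1 and combination 2. Control 1, control 2 and combination 2 lie at 329 to 490 CPM on the left, below all other libraries at 872 to 1086 CPM.

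The other genes of the pathway were read from a list of 35, of which 34 were tested. After cisplatin 33 of the 34 had a higher mean than the controls (median 0.58 on the log2 scale), after TiO2 32 with a median of 0.55, and after the combination 30 with a median of 0.24. edgeR called 0 of the 34 in each of these comparisons, with 3, 5 and 0 at an unadjusted p under 0.05. DESeq2 also called 0 in each, and limma voom with sample weights called 31, 29 and 28 higher. Over all genes, edgeR had 3.27% and 3.71% higher at that unadjusted p after cisplatin and TiO2, and voom called 37.2%, 35.5% and 30.6% higher in the 3 comparisons. In the authors' deposited table for TiO2, 1 of these genes was called, moon, at 1.11 on the log2 scale (adjusted p = 0.0459). There, 24 of 10754 genes were called higher and 409 lower, which is 4.03% in both directions together. moon encodes Moonshiner, which starts transcription of the clusters that Rhino marks, and is named here after its values were seen. It stood at 13.8, 7.86 and 18.4 CPM in the controls and 27.7, 27.3 and 27.6 CPM with TiO2. These groups did not overlap, which held for 11.3% of all genes in this direction. Among those with the smallest p after cisplatin were vas, tapas and nxf2. vas encodes Vasa, the DEAD-box helicase of the nuage, and stood at 108, 91.0 and 152 CPM in the controls, 201, 194 and 191 CPM with cisplatin, 142, 235 and 199.9 CPM with TiO2, and 188, 80.6 and 141 CPM with both. Its log2 fold change after cisplatin was 0.74 (SE 0.31, adjusted p = 0.270 in edgeR).

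tapas, whose Tudor protein works with Qin, was narrower in range, with 119, 116 and 144 CPM in the controls, 167, 168 and 162 CPM with cisplatin, 177, 179.9 and 170.0 CPM with TiO2, and 187, 119 and 156 CPM with both. It was also among the smallest p after TiO2, at 0.47 on the log2 scale (SE 0.17, adjusted p = 0.300 in edgeR), together with nxf2 at 0.76 (SE 0.32), which acts with Piwi in nuclear silencing, and Nxf3 at 0.75 (SE 0.32), which exports cluster transcripts. After the combination the smallest p-values belonged to tud at 0.23, tapas at 0.28 and tho2 at 0.49 (adjusted p = 0.906, 0.909 and 0.952 in edgeR). The interaction was negative for 32 of the 34 with a median of -0.93, and vas had -1.23 (SE 0.43, adjusted p = 0.129 in edgeR).

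The spread of the list over the libraries was smaller than that of the 9 genes, with a median of 2.97-fold between the highest and lowest library against 4.70-fold. Combination 2 was the lowest library for 25 of the 34. papi, whose Tudor protein sits on the outer mitochondrial membrane, went the other way and was named after its values were seen. It had its highest level of 81.0 CPM in combination 2 and lay between 46.4 and 58.0 CPM in the other libraries. A list of 9 genes of the miRNA and siRNA pathways, which are transcribed in most tissues, had medians of 0.48 after cisplatin, 0.44 after TiO2 and 0.25 after the combination, with 0 called by edgeR and by DESeq2, 7 called higher in each by limma voom with sample weights, beside the same shares of all genes (37.2%, 35.5% and 30.6%), and 0, 1 and 0 at an unadjusted p under 0.05 in edgeR.

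**Figure D4:**
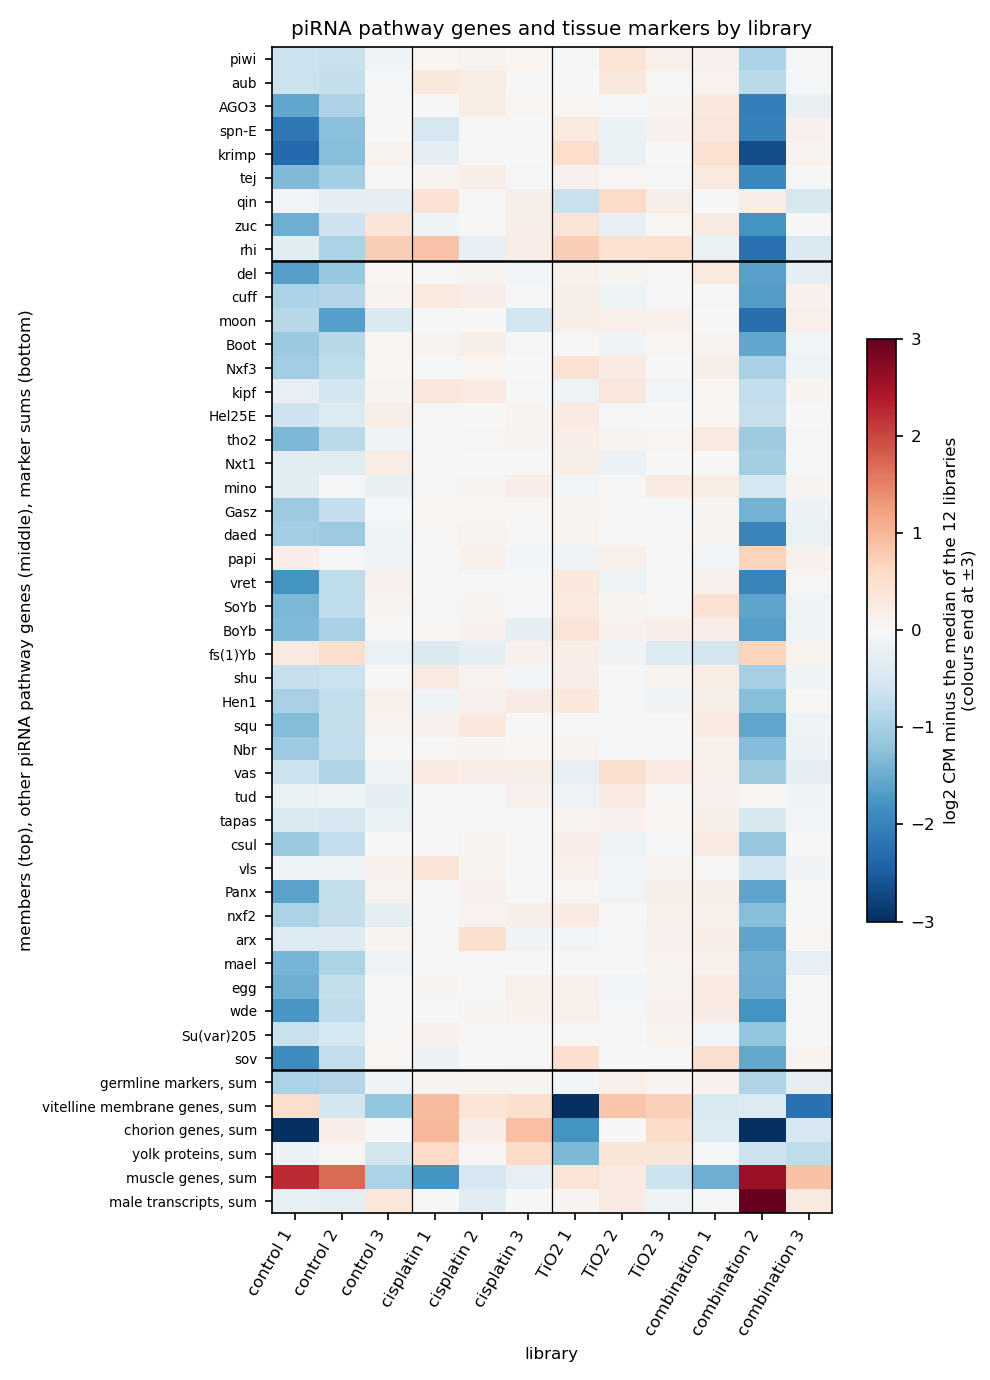
Log2 CPM minus the median over the 12 libraries for the 9 piRNA pathway genes (top), 34 other genes of the pathway (middle) and summed markers (bottom), one column per library, with colours ending at ±3. Control 1, control 2 and combination 2 are blue for most pathway genes and red for the muscle sum. qin, papi and fs(1)Yb do not follow that pattern, and neither does tud in combination 2.

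The genes outside the pathway whose log2 CPM followed the mean of the 9 most closely over the 12 libraries were Traf6, CG9986, Ets97D, mdlc and CycA, with Pearson's r from 0.998 to 0.996. CycA encodes a mitotic cyclin and Ets97D a transcription factor of the ETS family. Over the 10 libraries other than control 1 and combination 2, r was 0.993 for Traf6 and 0.986 for CycA, and Spearman's rho over all 12 was 0.881 and 0.720. The points share library composition, and 33.9% of the 8215 genes compared had r above 0.9, so likeness to the pathway mean was common in these libraries.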

How the data were processed

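RNA was extracted with Trizol and sequenced from stranded mRNA libraries, per the labels' protocols. For all 12 libraries the authors deposited unnormalized counts, 1 per gene. The submitters' processing notes name FastQC, Trimmomatic, BWA, SAMtools and HTSeq without roles or versions. The genome build and the strand setting of the counting are not given in the sources used here. The coordinates of 17589 of the 17610 genes equal those of BDGP6.54, from which symbols and spans were taken. The authors' deposited comparison tables hold log2 fold changes with standard errors and p-values, which were used only where named.

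Counts were tested with edgeR 4.0.16 (R 4.3.3): filterByExpr, TMM scaling, 1 quasi-likelihood model with 4 group means over all 12 libraries, 7 comparisons, two-sided p-values adjusted by Benjamini-Hochberg over 11060 genes, threshold 0.05. CPM are TMM-scaled, and log2 CPM use a prior count of 2. DESeq2 1.42.0 and limma 3.58.1 (voom with sample weights) were alternatives, beside RLE scaling, no filter, only the groups compared, a replicate block and each library left out. The fit was also run on simulated counts in which 200 genes had been changed, and the outcome is not given here.

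The members and lists were chosen with earlier results of these data known. All 10 members were named, with the 3 other pathway genes of smallest p per comparison where none passed (mean of at least 5 CPM) and the 5 genes most like the members' mean. Reads carry no molecular identifiers, so the depth of 26763042 to 46694769 counts limits counting error only. No sequence is printed.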

Additional observations from a re-analysis of the deposited data

How the results depend on the processing

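With all libraries, edgeR called 0 genes in each of the 7 comparisons, and the same count of 0 was found with RLE scaling, without the filter and, for the 6 comparisons between 2 groups, with only the groups compared. DESeq2 called 206 genes for cisplatin, 290 for TiO2 and 47 for the combination against control, 36 and 3 for the combination against cisplatin and TiO2, and 1611 for the interaction, none of them a pathway member. limma voom with sample weights called 8136, 7905 and 6462 genes against control, 2618 and 348 for the combination against the single treatments, and 7963 for the interaction, with 8, 8, 7, 1, 0 and 9 of the 9 members. Its weights ran from 0.0623 for combination 2 and 0.116 for control 3 to 4.69 for control 2 and 6.48 for combination 3. In those groups its calls rest mostly on control 2 and combination 3. Leaving out control 1 and combination 2 together gave 12 genes for TiO2 and 3 for the combination against control. Leaving out 1 library gave 0 to 14 genes for TiO2 and 0 to 4 for the combination against control, both highest without combination 2. For the interaction it gave 0 to 2823 genes, with 2823 without combination 1 and 1752 without control 3, and 0 to 1 members (aub). The cause was not tested.

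Directions of single members changed in a few settings. Against control, the combination gave qin -0.17 and rhi 0.44 under voom weights. With 1 library left out it ranged from -0.25 to 0.72 for zuc, from -0.18 to 0.85 for AGO3 and from -0.0082 to 0.31 for qin. The interaction of zuc was 0.032 without control 1 and combination 2. The replicate block called 0 genes and 0 members in all 7 comparisons. Correlations of same-numbered deviations from the group means ran from -0.74 to 0.47, with 6 of 18 over 0.1. With 3 libraries per group and outlying ones among them, these values cannot settle whether the replicate numbers pair the libraries. Depth bears most on zuc, with 160 to 806 counts per library, and on armi, with at most 1.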

Other observations

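The piRNA precursor flam, a long transcript of follicle cells whose piRNAs load Piwi and silence retroviral elements, was named after its values were seen. It stood at 0.769, 0.643 and 1.85 CPM in the controls, 1.60, 2.16 and 1.91 CPM with cisplatin, 4.32, 7.04 and 3.76 CPM with TiO2, and 3.24, 0.364 and 6.01 CPM with both. All TiO2 libraries were above all control and all cisplatin libraries, while the combination spanned the whole range, with combination 2 lowest and combination 3 next to the top. The log2 fold change of flam for TiO2 against control was 2.20 (SE 0.79, unadjusted p = 0.0186, adjusted p = 0.300 in edgeR, higher in 3 of 3 libraries), so it did not pass the correction. DESeq2 gave an adjusted p of 0.0742 and limma voom with sample weights one of 0.000368, and over the edgeR settings that leave out 1 library the log2 fold change stayed between 1.88 and 2.84. For the combination against control the value was 1.55 (SE 0.78, adjusted p = 0.781 in edgeR), and 2.07 without combination 2. For cisplatin it was 0.79 (SE 0.77, adjusted p = 0.458 in edgeR). limma voom with sample weights gave 1.49 for cisplatin (adjusted p = 0.0121), 2.73 for TiO2 and 3.06 for the combination (adjusted p = 0.000526). It called 37.2%, 35.5% and 30.6% of all genes higher in these 3 comparisons. How reads that map to several repeats were counted is not given in the sources used here. The counts behind these levels were 12 to 251 reads per library.

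The Stellate genes, X-linked repeats that piRNAs silence in the male germline, gave almost no counts. Of the 15 targets listed, flam included, 11 had a count of 0 in all 12 libraries. Ste12DOR had 7 counts in all and Ste:CG33236 had 6, of which 5 were in combination 2, the library with male transcripts. How reads that map to several of these repeats were counted is not given either, so Stellate transcription cannot be read from these counts.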
